A study of Mus musculus with 14 samples.

Results

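The serum levels of 4 chemokines were followed in mice with skin wounds: CCL17/TARC and CCL22/MDC, which bind the receptor CCR4, and CCL19/MIP-3beta and CCL21/6Ckine, which bind CCR7. They were chosen by name and are 4 of the 111 analytes of an antibody membrane array, on which each analyte has a pair of spots. The wounds were kept under negative pressure (NP) for 0.5, 2 or 16 h, or at atmospheric pressure (AP) with a wet dressing for the same times, and a control group (CTRL), which the design text describes as AP at 0 h, serves both pressures. All mice were males of the strain C57BL/6JNarl, 8 weeks old, with no transgene or drug named in the labels. The paper's methods do name isoflurane anesthesia, the tranquilizer diazepam and the analgesic ketorolac. Each of the 7 groups has 2 samples, and each sample is 1 membrane with 100 µL of pooled serum, made from portions of 20 µL. The methods speak of independent experiments but do not say how the pools of a group differed, and p-values therefore cover only how far such membranes differ, which may be technical.

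Chemokines are small secreted proteins that direct migrating leukocytes along their gradients. CCR4 is carried by T helper type 2 cells, regulatory T cells and skin-homing T cells, and its ligands are made mainly by dendritic cells and macrophages. CCR7 is carried by naive T cells and by mature dendritic cells on their way out of the skin. CCL21 is made without stimulation by lymphatic endothelium and by the stroma of lymph nodes, whereas CCL19 comes from stroma and dendritic cells and binds less to the extracellular matrix.

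The genes of each pair that shares a receptor lie close together on the same chromosome. In the mouse build GRCm38.p6, Ccl17 (chr8:94809380-94812038) and Ccl22 (chr8:94745684-94751388) are separated by 57991 bases, and Ccl19 (chr4:42754525-42756365) and Ccl21a (chr4:42772860-42773991) by 16494 bases. The gene table lists 4 protein-coding Ccl21 genes, all on chromosome 4, and the name of an analyte does not say which of them an antibody binds. Of 249 aligned bases before the start of Ccl21a, 248 were identical before the start of Ccl21d. The promoters are shown so that the genes of each pair can be compared. Each run holds the 250 bases before the start site that RefSeq's promoter table uses, and capitals mark the STAT6-type element TTCNNNNGAA, which reads the same on both strands.
Ccl17: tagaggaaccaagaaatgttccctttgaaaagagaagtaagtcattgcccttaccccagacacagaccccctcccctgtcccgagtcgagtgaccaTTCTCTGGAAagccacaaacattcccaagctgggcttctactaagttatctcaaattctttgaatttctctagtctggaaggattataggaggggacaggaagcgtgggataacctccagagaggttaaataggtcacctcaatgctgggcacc
Ccl22: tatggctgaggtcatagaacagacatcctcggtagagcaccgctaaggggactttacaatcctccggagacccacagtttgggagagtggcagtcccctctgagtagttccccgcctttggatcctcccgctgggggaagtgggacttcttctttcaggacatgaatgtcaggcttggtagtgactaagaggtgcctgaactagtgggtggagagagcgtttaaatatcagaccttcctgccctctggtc
Ccl19: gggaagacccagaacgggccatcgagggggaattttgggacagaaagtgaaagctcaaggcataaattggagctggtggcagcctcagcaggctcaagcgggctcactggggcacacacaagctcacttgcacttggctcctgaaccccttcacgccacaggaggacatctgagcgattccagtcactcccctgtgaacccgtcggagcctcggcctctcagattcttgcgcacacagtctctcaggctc
Ccl21a: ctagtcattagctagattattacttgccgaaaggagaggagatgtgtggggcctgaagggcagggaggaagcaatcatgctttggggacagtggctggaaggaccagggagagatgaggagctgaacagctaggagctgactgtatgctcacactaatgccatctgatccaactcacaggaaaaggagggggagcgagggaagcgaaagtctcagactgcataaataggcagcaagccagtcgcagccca
These runs are chr8:94810203-94810452 (plus strand) for Ccl17, chr8:94745434-94745683 (plus strand) for Ccl22, chr4:42756366-42756615 (minus strand) for Ccl19 and chr4:42773992-42774241 (minus strand) for Ccl21a, and the start site used for Ccl17 lies inside the gene's span. STAT6 is the transcription factor through which IL-4 acts on CCL17. The element was present 1 time, 154 bases before the start of Ccl17, and in none of the other 3 windows, and it occurred in 1917 of 32536 promoters of this length (5.89%). The array measured protein in serum, and no factor's binding was measured.

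Values are given on 2 scales, because the membranes differed in brightness. The normalized intensity is the authors' value, in arbitrary units, and brings together the 2 samples of a group but not the groups. The other scale is the raw intensity as a percent of the mean of the membrane's own reference spots, which are positive controls at 3 positions. These reference spots averaged 165561 ± 3560 (SD, n = 2) at CTRL 0 h and 18043 to 43803 in the other 6 groups, so that those of CTRL were 3.78 to 9.18 times as bright. Their balance also varied, since the reference position in row J was 0.714 (AP 0.5 h) to 2.29 times (NP 2 h) as bright as those in row A. All 4 chemokines sit in row B, so another setting divides by the row A positions alone. Detection means a raw intensity above the negative control of the same membrane, which read 21 to 93, but 203 and 296 at AP 16 h. CCL17, CCL22 and CCL21 were detected in all 14 samples and CCL19 in 12, the exceptions being both AP 16 h samples.

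CCL17 was lowest in NP at 2 h and highest in AP at 2 h. Its normalized intensity in the 2 samples was 1315 and 2195 at CTRL 0 h. Under NP it read 2680.4 and 2738 after 0.5 h, 276 and 370 after 2 h, and 1380 and 1215 after 16 h. Under AP it read 1428 and 1385 after 0.5 h, 3032 and 3272 after 2 h, and 1189 and 1125 after 16 h. The order of the group means was AP 2 h (3152), NP 0.5 h (2709), CTRL (1755), AP 0.5 h (1406), NP 16 h (1298), AP 16 h (1157) and NP 2 h (323). Among neighbours in this order, only CTRL and AP 0.5 h overlapped, and the CTRL samples themselves differed by 50.2% of their mean.

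CCL22 was likewise highest in AP at 2 h, and it was lowest in NP at 2 and 16 h. It read 6405 and 5738 at CTRL 0 h. Under NP it read 8735 and 8616 after 0.5 h, 2397 and 3138 after 2 h, and 2662 and 2571 after 16 h. Under AP it read 6389 and 6165 after 0.5 h, 11455 and 12210 after 2 h, and 3517 and 3368 after 16 h. AP 2 h (mean 11833) stood above NP 0.5 h (8675), and both stood above AP 0.5 h (6277) and CTRL (6071), which overlapped. NP 2 h (2768) and NP 16 h (2617) were lowest and overlapped as well.

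CCL19 was not above the negative control in AP at 16 h, and among the other groups it was lowest in NP at 2 h. It read 250 and 181 at CTRL 0 h. Under NP it read 375 and 426 after 0.5 h, 67.0 and 73 after 2 h, and 176 and 168 after 16 h. Under AP it read 531 and 420 after 0.5 h, 522 and 465 after 2 h, and 162 and 144 after 16 h. The groups AP 2 h (493), AP 0.5 h (475) and NP 0.5 h (400.4) overlapped each with the next in order, whereas NP 2 h averaged 70.0. In replicate 1 of NP 2 h the raw value of 78 was barely above the negative control of 72.

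CCL21 differed from the others in that its normalized intensity was highest before treatment. It read 49367 and 47013 at CTRL 0 h. Under NP it read 37637 and 38847 after 0.5 h, 14599.7 and 17249 after 2 h, and 6645 and 6509 after 16 h. Under AP it read 39265 and 43475 after 0.5 h, 43397 and 45456 after 2 h, and 8883 and 8657 after 16 h. No 2 neighbours in the order of groups overlapped except AP 2 h and AP 0.5 h, and the 16 h groups were lowest under both pressures.

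**Figure D1:**
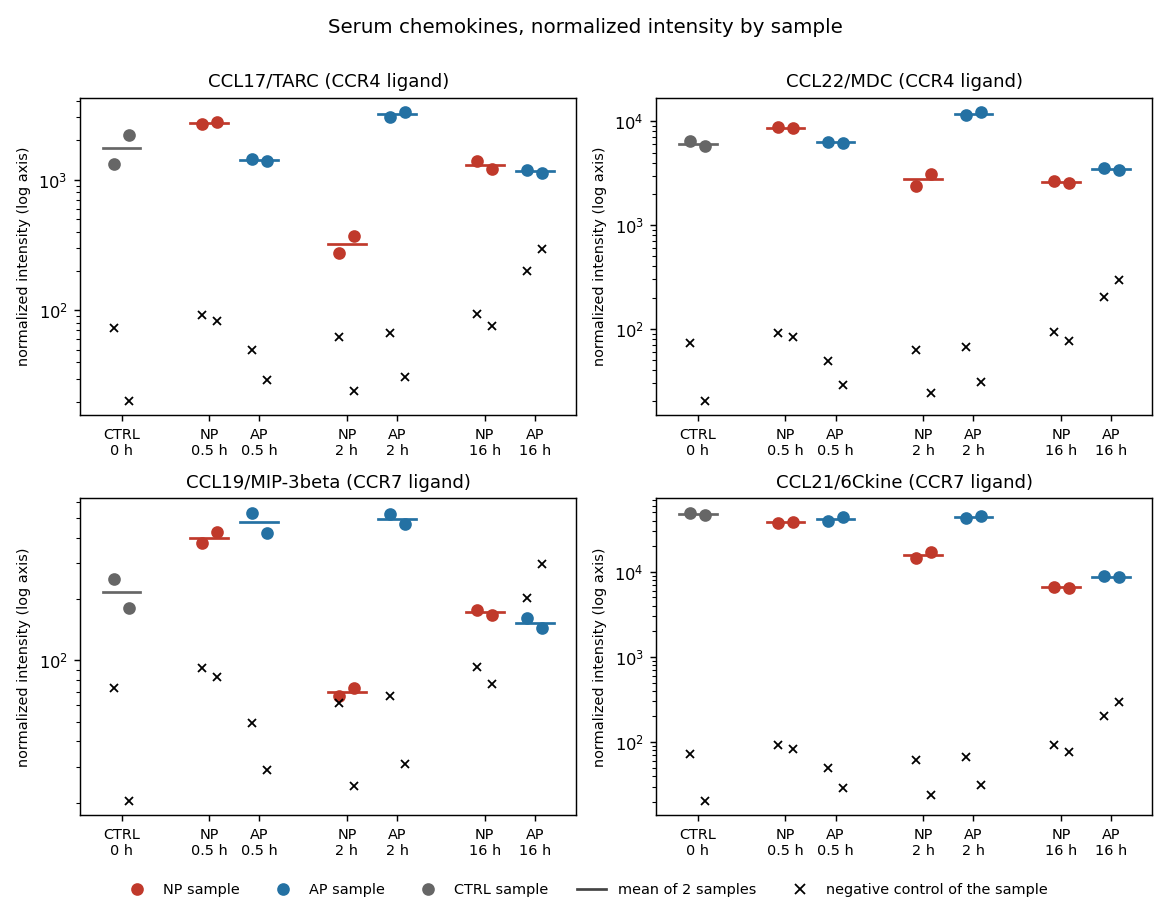
Normalized intensity (arbitrary units, log axis) of the 4 chemokines in each group, with NP left of AP at each time; points are the 2 samples, lines their mean and crosses the negative control of the same membrane. The NP 2 h samples are the lowest of CCL17 (276 and 370), and the CCL19 points of AP 16 h lie below their negative controls.

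Dividing by the reference spots changed the place of CTRL, whose reference spots were the brightest. On this scale CCL17 averaged 1.08% ± 0.38 of the reference spots at CTRL (SD, n = 2 here and for the following means), 6.24% ± 0.094 in NP at 0.5 h, 1.37% ± 0.28 in NP at 2 h and 7.22% ± 0.65 in NP at 16 h. Under AP it averaged 4.38% ± 0.094 at 0.5 h, 9.31% ± 0.50 at 2 h and 4.57% ± 0.18 at 16 h. CCL22 averaged 3.72% ± 0.29 at CTRL, 20.0% ± 0.19, 11.8% ± 2.2 and 14.6% ± 0.36 in NP at 0.5, 2 and 16 h, and 19.5% ± 0.49, 35.0% ± 1.6 and 13.6% ± 0.42 in AP at the same times. For both CCR4 ligands AP 2 h was again highest, and NP 2 h had the lowest mean of the treated groups, overlapping CTRL for CCL17 and AP 16 h for CCL22.

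The CCR7 ligands were likewise lowest at CTRL on this scale. CCL19 averaged 0.132% ± 0.030 at CTRL, 0.922% ± 0.083, 0.298% ± 0.018 and 0.956% ± 0.033 in NP at 0.5, 2 and 16 h, and 1.48% ± 0.24, 1.46% ± 0.12 and 0.603% ± 0.049 in AP at the same times, the last from readings below the negative control. CCL21 averaged 29.6% ± 1.0 at CTRL, 88.0% ± 2.0, 67.8% ± 8.0 and 36.6% ± 0.53 in NP at 0.5, 2 and 16 h, and 129% ± 9.3, 131% ± 4.3 and 34.6% ± 0.63 in AP at the same times. For CCL21 the 16 h groups thus lay close to CTRL, though without overlap, while the early AP groups exceeded the reference spots. Of the 7 places in the order of groups, CCL22 kept 5 between the scales and CCL17 and CCL21 kept 1 each.

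**Figure D2:**
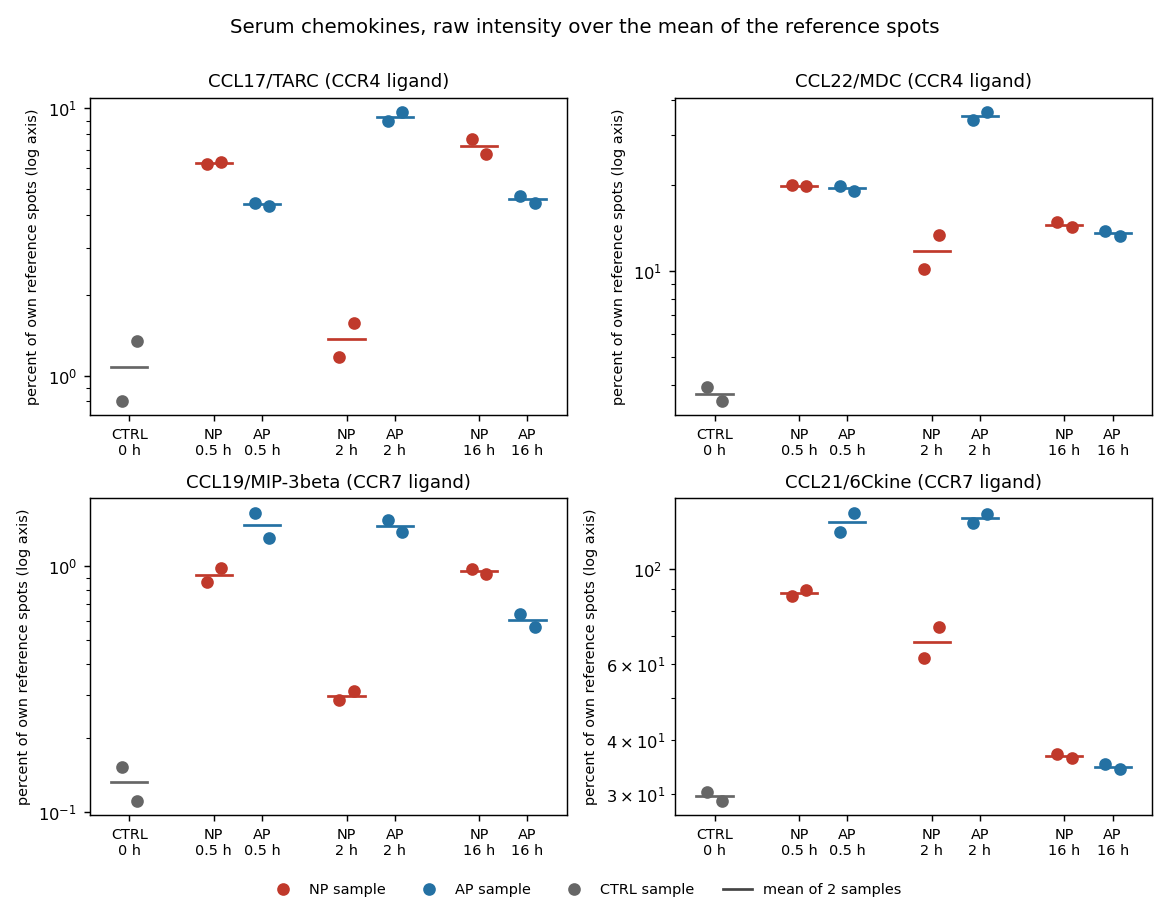
Raw intensity of the 4 chemokines as a percent of the mean of the same membrane's reference spots (log axis), with NP left of AP at each time; points are the 2 samples and lines their mean. CTRL is lowest in all 4 panels by its mean, and AP 2 h holds the highest mean of CCL17 (9.31%), CCL22 (35.0%) and CCL21 (131%).

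At 0.5 h, both CCR4 ligands were higher in NP than in AP on the normalized scale, and neither CCR7 ligand passed the test. Comparisons used limma on the log2 values of all 14 samples, with a threshold of 0.05 after adjustment over the 111 analytes. CCL17 was 1.93 times as high in NP (log2 difference 0.95, SE 0.22, adjusted p = 0.0021) and CCL22 was 1.38 times as high (0.47, SE 0.11, adjusted p = 0.0022). The log2 difference was -0.24 for CCL19 (SE 0.31, adjusted p = 0.52) and -0.11 for CCL21 (SE 0.076, adjusted p = 0.24), although the samples of CCL21 did not overlap. The 2 of 4 called higher stand beside 44.1% of the 111 analytes called higher, and the median difference over all analytes was 0.42. With the reference scaling that median was -0.018 and 12.6% were called higher, CCL17 had a difference of 0.51 (adjusted p = 0.086) and CCL22 one of 0.03 (adjusted p = 0.87), while CCL21 was lower in NP (-0.55, adjusted p = 3.6e-05, beside 21.6% called lower). With the row A positions, CCL17 stayed higher in NP (0.71, adjusted p = 0.013, beside 25.2% called higher) and CCL21 lower (-0.35, adjusted p = 0.00064, beside 15.3% called lower). CCL17 thus had the largest difference of the 4 and CCL19 and CCL21 negative ones on all 3 scales. With median scaling, which sets the median analyte of each membrane to the same value, CCL17 was at -0.048 (adjusted p = 0.91) and CCL22 at -0.53 (adjusted p = 0.051), beside 2.7% called higher.

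At 2 h all 4 were lower in NP than in AP, although with median scaling only CCL17 was called. CCL17 in NP was 0.101 times its level in AP (log2 difference -3.30, SE 0.22, adjusted p = 7.8e-10), with 276 and 370 in NP and 3032 and 3272 in AP. CCL19 was at 0.142 times (-2.82, SE 0.31, adjusted p = 4.3e-07), CCL22 at 0.232 times (-2.11, SE 0.11, adjusted p = 8.0e-11) and CCL21 at 0.357 times (-1.48, SE 0.076, adjusted p = 8.0e-11). The CCL19 fold rests on raw NP readings of 78 and 73, beside negative controls of 72 and 24, with no background subtracted. Most of the array was lower as well: 86.5% of the analytes were called lower, with a median difference of -1.23. Of the 111 differences, 7 were below that of CCL17, 11 below that of CCL19, 24 below that of CCL22 and 47 below that of CCL21. The 4 calls held with the reference scaling, where 63.1% were called lower and the median was -0.70, at -2.77 for CCL17, -2.29 for CCL19, -1.58 for CCL22 and -0.96 for CCL21. They also held with the row A positions, where 43.2% were called lower and the median was -0.22, at -2.29, -1.80, -1.10 and -0.47 in the same order. With median scaling the all-analyte median was 0.65, CCL17 remained lower (-1.43, adjusted p = 2.8e-05, beside 11.7% called lower), CCL19 was at -0.94 (adjusted p = 0.054), CCL22 at -0.23 (adjusted p = 0.38) and CCL21 at 0.39 (adjusted p = 0.12).

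At 16 h, CCL22 and CCL21 were lower in NP on the normalized scale, but not over the reference spots. CCL22 was at 0.76 times its AP level (log2 difference -0.40, SE 0.11, adjusted p = 0.0060) and CCL21 at 0.75 times (-0.42, SE 0.076, adjusted p = 2.0e-04), beside 52.3% of analytes called lower and a median of -0.52. The array shares and medians at 16 h include 32 analytes detected in no AP sample and 8 detected in no NP sample. CCL17 had a difference of 0.16 (SE 0.22, adjusted p = 0.51). CCL19 averaged 172 ± 6.0 in NP and 153 ± 12 in AP (SD, n = 2 each; limma adjusted p = 0.64), and no fold is given because neither AP sample was above its negative control. With the reference scaling, where the median was -0.022 and 20.7% were called higher, CCL17 was higher in NP (0.66, adjusted p = 0.023), and CCL22 (0.10, adjusted p = 0.50) and CCL21 (0.08, adjusted p = 0.43) were not called. With the row A positions CCL17 was again higher (0.77, adjusted p = 0.0081), and CCL21 was also called higher (0.20, adjusted p = 0.030), beside 29.7% called higher. CCL19 passed the threshold there as well (limma adjusted p = 0.048), which is set aside because its AP readings were below the negative control. With median scaling the CCL17 difference at 16 h turned negative.

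**Figure D3:**
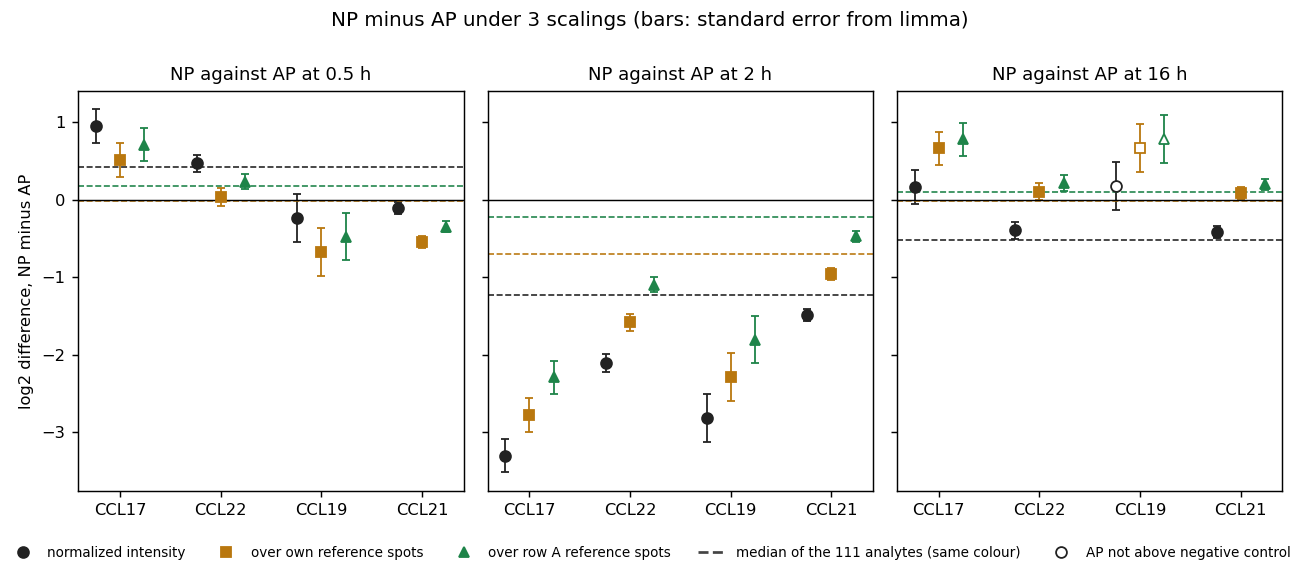
Log2 difference between NP and AP of each chemokine at 0.5, 2 and 16 h, on the normalized scale (circles), over the membrane's own reference spots (squares) and over its row A reference spots (triangles); bars are the standard error, dashed lines the median of the 111 analytes on each scale and open symbols CCL19 at 16 h, where AP was not above the negative control. At 2 h all plotted values are negative, from -3.30 for CCL17 to -0.47 for CCL21, and below the median of their scale.

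The step between 0.5 and 2 h differed between the pressures for all 4. Between 0.5 and 2 h the change in NP minus the change in AP was -4.25 for CCL17 (SE 0.31, adjusted p = 4.1e-09), -2.58 for CCL22 (SE 0.16, adjusted p = 8.7e-10), -2.58 for CCL19 (SE 0.44, adjusted p = 5.2e-05) and -1.37 for CCL21 (SE 0.11, adjusted p = 7.8e-09), on the log2 scale. On the array 84.7% of analytes were called in this direction, with a median of -1.69. The CCL19 value includes an NP 2 h reading barely above its negative control. CCL17 and CCL22 were lower at 2 h than at 0.5 h under NP and higher under AP, CCL19 was lower under NP and overlapped under AP, and so did CCL21. Between 2 and 16 h the difference was 3.46 for CCL17, 1.71 for CCL22 and 1.07 for CCL21 (adjusted p at most 2.9e-07), and none is given for CCL19, which was not detected in AP at 16 h. On the array 51.4% of analytes were called in this direction, and the median was 0.69. For these 3 chemokines the second step was much the same over the reference spots, at 3.43, 1.68 and 1.04, where 50.5% were called in this direction. The first step was smaller over the reference spots, where 57.7% were called in its direction, at -3.29 for CCL17, -1.61 for CCL22, -1.61 for CCL19 and -0.41 for CCL21, and over row A CCL21 was no longer called (-0.12, adjusted p = 0.29), beside 35.1%. With median scaling only CCL17 kept its sign and call in both steps, and CCL21 turned in both (1.50 and -1.35).

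Against CTRL at 0 h, the direction on the normalized scale varied with pressure and time, and CCL21 was called higher in no group. In NP at 0.5 h, CCL19 (0.91, adjusted p = 0.015), CCL17 (0.67, adjusted p = 0.011) and CCL22 (0.52, adjusted p = 6.2e-04) were higher than in CTRL, where 18% of analytes were called higher, and CCL21 was lower (-0.33, adjusted p = 0.0011), where 55% were called lower. In NP at 2 h all 4 were lower, from -2.41 for CCL17 to -1.14 for CCL22, beside 91% of the array. In NP at 16 h CCL21 (-2.87, adjusted p = 2.2e-15) and CCL22 (-1.21, adjusted p = 2.8e-08) were lower, beside 76.6% of the array. In AP at 2 h CCL19 (1.21, adjusted p = 0.0024), CCL22 (0.96, adjusted p = 6.4e-07) and CCL17 (0.89, adjusted p = 0.0016) were higher, against 16.2% of analytes. In AP at 0.5 h only CCL19 was called higher (1.15, adjusted p = 0.0036), beside 12.6%, and CCL21 was lower (-0.22, adjusted p = 0.015), beside 62.2%. In AP at 16 h CCL21 (-2.46, adjusted p = 4.2e-14), CCL22 (-0.82, adjusted p = 4.6e-06) and CCL17 (-0.56, adjusted p = 0.028) were lower, beside 71.2%.

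These differences from CTRL depended on the scale, and which scale serves better was not tested. The reference spots were brightest at CTRL. The median analyte's normalized intensity was 1448 and 2195 at CTRL, within the range of the treated samples (627 to 3307). Over the reference spots all 4 were higher than CTRL in each of the 6 treated groups, and each was called except CCL17 in NP at 2 h (0.38, adjusted p = 0.12), beside 84.7%, 62.2% and 82% of analytes called higher in NP at 0.5, 2 and 16 h and 87.4%, 86.5% and 86.5% in AP at these times. CCL19 in AP at 16 h, below its negative control, is left aside here. Of the called differences, that of CCL19 in AP at 0.5 h was largest (3.49) and those of CCL21 at 16 h were smallest (0.31 in NP and 0.23 in AP), while the medians of all analytes were 0.69 to 1.53. Single samples decided several normalized calls. CCL17 in NP at 0.5 h was at 0.30 without CTRL replicate 1 (adjusted p = 0.17) and at 0.66 without NP 0.5 h replicate 2 (adjusted p = 0.054). CCL19 in NP at 0.5 h was at 0.68 without CTRL replicate 2 (adjusted p = 0.11) and at 0.82 without NP 0.5 h replicate 2 (adjusted p = 0.085). CCL21 in AP at 0.5 h was at -0.19 without CTRL replicate 1 (adjusted p = 0.096) and at -0.15 without AP 0.5 h replicate 1 (adjusted p = 0.16). CCL17 in AP at 16 h was at -0.19 without CTRL replicate 2 (adjusted p = 0.39), at -0.92 without CTRL replicate 1, and at -0.59 or -0.52 without AP 16 h replicate 1 or 2 (adjusted p = 0.063 and 0.10). Without CTRL replicate 1, CCL17 was called lower in NP at 16 h (-0.76, adjusted p = 0.0024) and in AP at 0.5 h (-0.64, adjusted p = 0.0085), and in AP at 2 h it was at 0.52 (adjusted p = 0.026).

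Ratios between chemokines of the same membrane do not depend on its overall brightness, and they differed between groups. Each is given as the log2 ratio minus its mean at CTRL, as a description with no test. CCL17 over CCL22, the pair of CCR4 ligands, was at -1.28 and -1.25 in NP at 2 h and at -0.082 and -0.065 in AP at 2 h. It was at 0.89 and 0.75 in NP at 16 h and at 0.27 and 0.25 in AP at 16 h, while the CTRL samples lay at -0.45 and 0.45. The 2 CCR4 ligands therefore changed unequally in NP, with CCL17 lower relative to CCL22 at 2 h and higher relative to it at 16 h.

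At 16 h CCL21 was lower relative to CCL17 and CCL22 than at CTRL under both pressures. CCL22 over CCL21 was at 1.67 and 1.65 in NP at 16 h and at 1.65 and 1.63 in AP at 16 h, against 0.044 and -0.044 at CTRL. CCL17 over CCL21 averaged 2.48 in NP and 1.90 in AP at 16 h. CCL19 over CCL21, the pair of CCR7 ligands, was at 2.58 and 2.54 in NP at 16 h, and no value is given for AP at 16 h, where CCL19 was not detected. In AP at 2 h this ratio was at 1.44 and 1.21. In NP at 2 h it was computed as 0.054 and -0.063, between the CTRL samples (0.20 and -0.20). Raw CCL19 in NP at 2 h was 78 and 73, beside negative controls of 72 and 24. No background is subtracted in these ratios, so the NP 2 h values do not show a return to the CTRL ratio. The spots of the 4 chemokines lie at positions 9 to 18 of row B, and the first of the row A reference positions was 1.05 to 2.05 times as bright as the last. The part of this slope in the ratios was not tested.

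**Figure D4:**
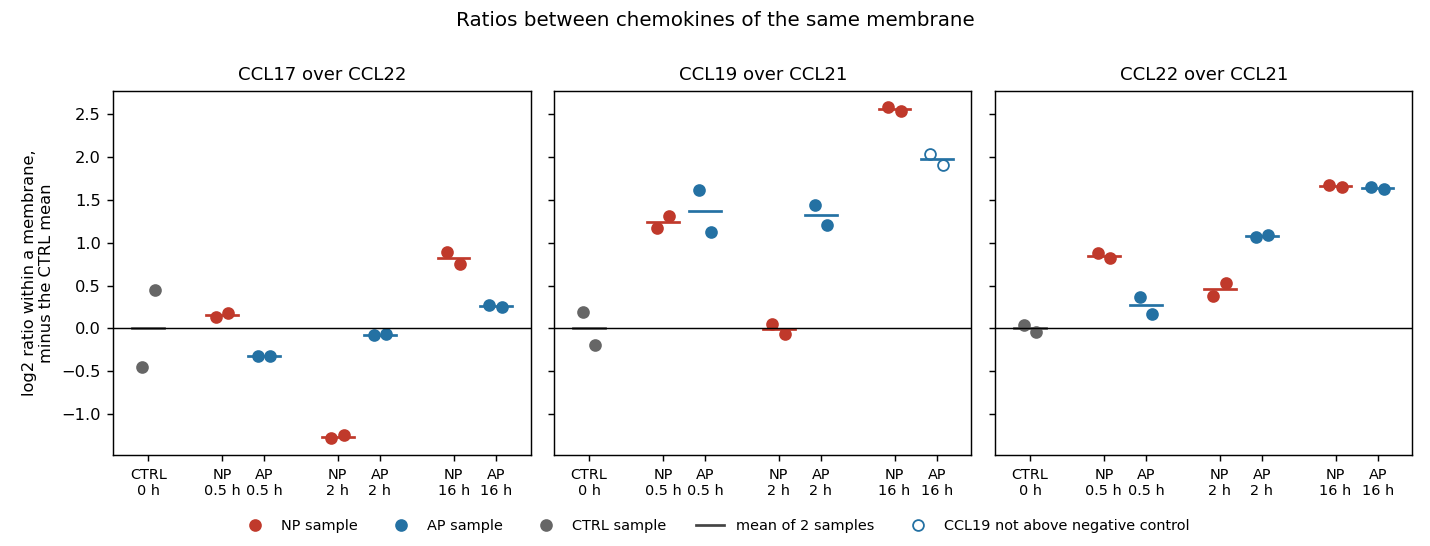
Log2 ratio of 2 chemokines on the same membrane, minus its mean at CTRL, by group, with NP left of AP at each time; points are samples, lines their mean, and open points mark AP 16 h samples in which CCL19 was not above the negative control. CCL17 over CCL22 is lowest in NP at 2 h (mean -1.27), and CCL22 over CCL21 reaches a mean of 1.66 in NP and 1.64 in AP at 16 h.

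The other chemokines of the array also read low in NP at 2 h, with an exception. Of the 7 other CC chemokines, 6 were lower than in AP and 1 was higher, with a median difference of -1.51, beside the 86.5% of all analytes called lower. The higher one was CCL20, the ligand of CCR6, at 3.21 (adjusted p = 2.0e-05), and with the reference scaling 3.73. All 9 CXC and CX3C chemokines were lower, with a median of -2.61, close to the -2.46 of the 4 CCR4 and CCR7 ligands. The lowest, named after their values were seen, were the CXCR3 ligands CXCL9 (-3.70) and CXCL11 (-3.56). With the reference scaling 5 of the 7 and 8 of the 9 were lower, beside 63.1% of the array. With the row A positions 3 of the 7 were lower and 3 higher, and 7 of the 9 were lower and 1 higher, beside 43.2% called lower. At 0.5 h, where both CCR4 ligands were called higher in NP on the normalized scale, 0 of the 7 other CC chemokines were called higher. Called lower were 2, CCL12 (-1.35, adjusted p = 0.0017) and CCL6 (-0.69, adjusted p = 2.7e-06). CCL5 (1.05, limma adjusted p = 0.15) and CCL20 (1.03, adjusted p = 0.11) had larger differences than CCL17 and CCL22 without being called. CCL3/CCL4, at -0.75 (adjusted p = 0.13), was not called either. Of the 9 CXC and CX3C chemokines 2 were higher and 1 was lower at that time, and 44.1% of all analytes were called higher. Over the reference spots at 0.5 h neither CCR4 ligand and 0 of the 7 were called higher, and 4 of the 7 were lower. Of the 9, 0 were then higher and 1 lower, beside 12.6% of the array called higher and 21.6% lower. With the row A positions CCL17 was called higher, and again 0 of the 7, beside 25.2% of the array. At 16 h on the normalized scale, 2 of these 7 were higher in NP and 2 lower. Of the CXC and CX3C chemokines 1 was higher and 4 lower, beside 52.3% of the array called lower. Over the reference spots 2 of the 7 were higher and 1 lower at 16 h. Of the 9, 1 was higher and 1 lower, beside 20.7% of the array called higher.

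**Figure D5:**
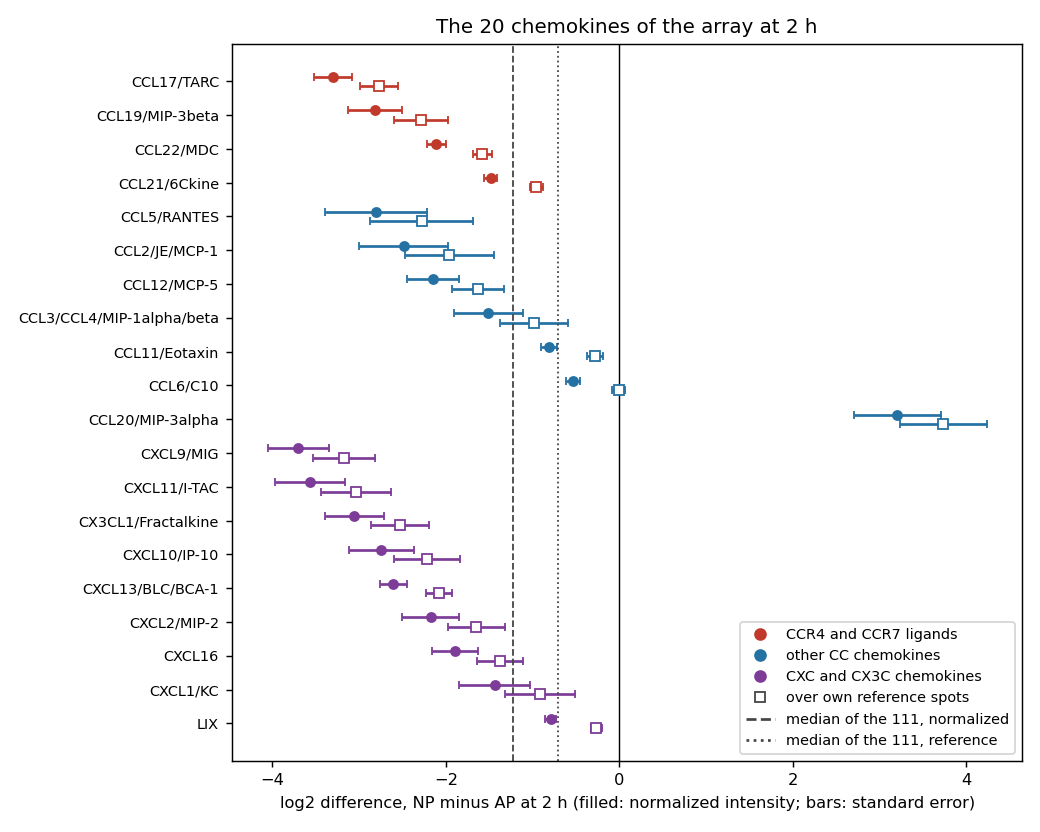
Log2 difference between NP and AP at 2 h of the 20 chemokine analytes, on the normalized scale (filled circles) and over the reference spots (open squares), with standard errors; the vertical lines are the medians of the 111 analytes. CCL17 (-3.30) and CCL19 (-2.82) lie left of CCL22 (-2.11) and CCL21 (-1.48), and CCL20 (3.21) is the only chemokine above 0 on the normalized scale.

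Neighbouring spots and proteins released by blood cells moved in part with these results. Their counts are on the normalized scale unless another is named. They stand beside 44.1% of the array called higher at 0.5 h, 86.5% lower at 2 h and 52.3% lower at 16 h. Of the 6 other analytes of row B, 5 were lower in NP at 2 h and CCL20 was higher, with a median of -1.42. Over the reference spots 4 were lower and 1 was higher, with a median of -0.89, beside 63.1% of the array called lower. With the row A positions 3 were lower and 3 higher, with a median of -0.41, beside 43.2% called lower. On the normalized scale 0 of them were called higher and 2 lower in NP at 0.5 h, whereas 2 were higher and 0 lower at 16 h. Of 5 proteins that platelets release (PDGF-BB, P-Selectin, CCL5, EGF and Angiopoietin-1), 3 were called higher in NP at 0.5 h and 0 lower, all 5 were lower at 2 h, and 1 was higher with 2 lower at 16 h. Their summed normalized intensity was 68160 to 68881 in NP and 55017 to 58115 in AP at 0.5 h, 33954 to 40154 in NP and 73567 to 77182 in AP at 2 h, 33827 to 35535 in NP and 49372 to 50211 in AP at 16 h, and 168197 to 170099 at CTRL. Over the reference spots the order changed, with platelet sums of 157 to 159% in NP and 171 to 181% in AP at 0.5 h. At 2 h these were 145 to 171% in NP and 217 to 228% in AP. At 16 h they were 188 to 198% in NP and 195 to 198% in AP, and CTRL was lowest at 103 to 104%. Of 3 neutrophil proteins (Myeloperoxidase, MMP-9 and Lipocalin-2), 1 was higher in NP at 0.5 h, all 3 were lower at 2 h, and 1 was higher at 16 h. Their sums were 21397 to 22191 in NP and 22148 to 23249 in AP at 0.5 h, 7742 to 8537 in NP and 15828 to 16824 in AP at 2 h, 6111 to 6674 in NP and 4664 to 4924 in AP at 16 h, and 82722 to 91584 at CTRL. As a percent of the reference spots, the neutrophil sums were highest in AP at 0.5 h (68.9 to 72.3%) and not at CTRL (50.7 to 56.2%). CTRL then overlapped NP at 0.5 h (49.2 to 51.1%). The groups at 2 and 16 h stayed below CTRL on this scale too, and AP at 16 h was lowest (18.4 to 19.4%). At AP 16 h, 1 analyte of each list was detected in no sample. The part of clotting and of these cells in the chemokine levels was not tested.

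Each chemokine's course was set against those of the other 110 analytes by Pearson's r of log2 intensity after subtracting the sample's median, over the 14 samples. These are descriptions with no p, and the samples share membranes and groups. CCL17 was most like IL-28A/B (0.81), CD160 (0.80) and CCL5 (0.77). CCL22 was most like Amphiregulin (0.85), IL-33 (0.80) and CX3CL1 (0.77). CCL19 was most like G-CSF (0.84), Amphiregulin (0.82) and CD160 (0.82). CCL21 was most like HGF (0.86), Flt-3 Ligand (0.85) and MMP-9 (0.78). The 2 CCR4 ligands were less like each other (0.38) than each was like CCL19 (0.66 for both), and the 2 CCR7 ligands had 0.10 between them. All values with CCL19 include its AP 16 h readings, which were below the negative control. CCL17 and CCL21 had -0.33, the lowest value among the 6 pairs.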

How the data were processed

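Serum of 14 samples in 7 groups was measured on mouse XL cytokine array membranes, exposed for 10 min. Per the methods, the authors read raw spot intensity values from the images and multiplied each by a factor, which is 1 for the dimmer membrane of a group and its reference mean over its own for the brighter one (0.859 to 1 here), to give the deposited normalized intensity. The groups are not scaled to each other. The t-test named in the methods was an alternative here.

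Log2 normalized intensity of the 111 analytes was fitted with limma 3.58.1 (R 4.3.3), with all samples, group means, eBayes with trend, and Benjamini-Hochberg adjustment over the 111 in each of 11 comparisons. The number of membranes limits the precision. Raw intensity was also divided by the mean of the membrane's 3 reference positions, by its 2 row A positions, or by its median analyte, or had the negative control subtracted with a floor of 10, which held 161 values. Other alternatives left out the dimmest 0.25 of analytes, the trend or 1 sample, or added the replicate number as a block. A fit without the CTRL samples was chosen after the data were seen. Scripts were tested on simulated data. Tables and figures were made with pandas 2.3.3 and matplotlib 3.10.9 (Python 3.11.15).

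The 4 chemokines and all lists were chosen with earlier results of these data known. Named were the 4 chemokines, for each the 3 analytes with the highest r, and analytes of the lists (other CC chemokines, CXC and CX3C chemokines, type 2 and dendritic cell cytokines, DPPIV/CD26, other row B analytes). Some of these list analytes moved against the 4 chemokines, such as CCL20 at 2 h. Others moved with them, such as IL-4, GM-CSF, DPPIV/CD26, CXCL9 and CXCL11 at 2 h. All 113 gene identifiers matched the RefSeq table of GRCm38.p6. Protein sequences were not used here.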

Additional observations from a re-analysis of the deposited data

Results flagged for a closer look

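The 8 differences between the pressures in the change over time, on the log2 scale, are given here because each passed the test of the difference itself (limma, normalized intensity, 2 samples per group). Between 0.5 and 2 h, the change in NP minus the change in AP was -4.25 for CCL17, -2.58 for CCL22, -2.58 for CCL19 and -1.37 for CCL21. The CCL19 value includes an NP 2 h reading barely above its negative control. Between 2 and 16 h the difference was 3.46 for CCL17, 1.71 for CCL22 and 1.07 for CCL21. The computed value for CCL19 was 2.99, but it is no measured difference, because both AP 16 h readings were below the negative control. With median scaling, the first difference was at 0.29 for CCL22, 0.29 for CCL19 and 1.50 for CCL21, and the second at -0.71 for CCL22 and -1.35 for CCL21. CCL17 kept its sign in both, at -1.38 between 0.5 and 2 h. The medians over all 111 normalized analytes were -1.69 and 0.69.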

How the results depend on the processing

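The 2 h differences between NP and AP kept their direction and call in all 4 chemokines under every alternative run except median scaling, where CCL17 alone kept them. Only 2 membranes per group, and CCL19 near or below the negative control, limit the rest. Leaving out the dimmest analytes (44 results) or the CTRL samples (20 results) changed no call. The causes of the following changes were not tested. Every CCL19 value below that involves AP 16 h (2.20, 2.40, 0.96 and -0.37) comes from readings under the negative control, so neither its size nor its sign is a result. Over the reference spots, 18 of 44 results turned their sign. Against CTRL, CCL17 was at 0.38, 2.79, 2.07 and 2.13 in NP 2 h, NP 16 h, AP 0.5 h and AP 16 h, CCL22 at 1.65, 1.97 and 1.87 in NP 2 h, NP 16 h and AP 16 h, CCL19 at 1.19, 2.87 and 2.20 in the same groups, and CCL21 at 1.57, 1.19, 0.31, 2.12, 2.15 and 0.23 in NP and then AP at 0.5, 2 and 16 h. Between NP and AP at 16 h, CCL22 was at 0.10 and CCL21 at 0.081. Over row A in the same order, CCL17 was at 0.93, 3.10, 1.96 and 2.32, CCL22 at 2.20, 2.28 and 2.06, CCL19 at 1.74, 3.18 and 2.40, CCL21 at 1.66, 1.74, 0.61, 2.01, 2.22 and 0.42, and at 16 h between NP and AP CCL22 at 0.22 and CCL21 at 0.20. With median scaling, CCL17 was at -0.023, 0.50, 0.025 and 0.88 in NP 0.5 h, NP 16 h, AP 0.5 h and AP 16 h against CTRL, CCL22 at -0.18 in NP 0.5 h and 0.62 in AP 16 h, CCL19 at 0.58 in NP 16 h and 0.96 in AP 16 h, and CCL21 at 0.076 in AP 0.5 h. Between NP and AP, CCL17 was at -0.048 at 0.5 h and -0.38 at 16 h, CCL22 at -0.53 at 0.5 h, CCL19 at -0.37 at 16 h and CCL21 at 0.39 at 2 h, and the change between 0.5 and 2 h differed by 0.29 for CCL22, 0.29 for CCL19 and 1.50 for CCL21, and that between 2 and 16 h by -0.71 for CCL22 and -1.35 for CCL21.

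The number of the 4 called moved as follows. Over the reference spots it was 1 for NP against AP at 0.5 h and 1 at 16 h, and 4 against CTRL in NP 16 h and AP 0.5 h, also over row A. With median scaling it was 1 for NP against AP at 2 h, 2 for the change between 0.5 and 2 h, and against CTRL 1 in NP 0.5 h, 2 in NP 2 h, 1 in NP 16 h, 1 in AP 0.5 h and 1 in AP 2 h. With the negative control subtracted or without the trend it was 1 in AP 0.5 h against CTRL. With the methods' t-test against CTRL it was 2 in NP 2 h and 0 in AP 0.5 h, at the unadjusted threshold, where limma at an adjusted p under 0.05 called 4 and 2, and after Benjamini-Hochberg 2 in NP 0.5 h, 2 in NP 2 h, 0 in AP 0.5 h and 1 in AP 2 h. Leaving out 1 sample gave 2 to 4 in NP 0.5 h, 2 to 3 in NP 16 h, 1 to 2 in AP 0.5 h and 2 to 3 in AP 16 h against CTRL, and in AP 0.5 h moved CCL17 between -0.64 and 0.097 and CCL22 between -0.029 and 0.13. It changed no call between NP and AP or in the change over time.

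The samples shared only a replicate number in the labels. The deviations of same-numbered samples correlated at -0.18 to 0.50 over 21 pairs of groups, with 14 over 0.1 and 3 under -0.1, and they were not treated as paired because not every pair was over 0.1. With the replicate number as a block, no call changed, and at 2 h CCL17 was at -3.30 between NP and AP (limma adjusted p = 1.6e-08).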

Other observations

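Among 4 cytokines that act on type 2 immunity and dendritic cells, whose values to print were chosen after they were seen, IL-4, which induces CCL17, was at 0.5 h higher in NP than in AP on the normalized scale (log2 difference 0.66, limma adjusted p = 0.020), but not over the reference spots (0.23, adjusted p = 0.48). At 2 h it was lower in NP on both scales (-1.90, adjusted p = 6.6e-07, and -1.37, adjusted p = 3.9e-05), and at 16 h it was at -0.39 (adjusted p = 0.13). GM-CSF, a growth factor of dendritic cells, was lower in NP at 2 h on both scales (-2.03, adjusted p = 0.00055, and -1.50, adjusted p = 0.0070). At 2 h 86.5% of all analytes were called lower on the normalized scale and 63.1% over the reference spots. The medians of the 4 cytokines were -1.18 and -0.65, close to the -1.23 and -0.70 of the array. IL-13 had -0.46 at 2 h (adjusted p = 0.34). Flt-3 Ligand, which drives the formation of dendritic cells, was at 0.10 at 2 h (adjusted p = 0.59). Over the reference spots it was higher in NP (0.62, adjusted p = 0.0037), where 11 of the 111 analytes were called higher. At 16 h it was lower in NP on both scales (-1.16, adjusted p = 1.9e-05, and -0.66, adjusted p = 0.0057), beside 58 and 19 of the 111 called lower. Of the 4 cytokines, 2 were detected in no AP 16 h sample, which limits the 16 h values.

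DPPIV/CD26, a peptidase that trims CCL22, was higher in NP at 0.5 h (0.23, limma adjusted p = 0.043), beside 44.1% of analytes called higher. Over the reference spots it was at -0.20 (adjusted p = 0.11). At 2 h it was lower in NP on both scales (-1.23, adjusted p = 2.9e-09, and -0.70, adjusted p = 4.6e-06). These values equal the medians of all analytes (-1.23 and -0.70), of which 86.5% and 63.1% were called lower. At 16 h it was at -0.18 (adjusted p = 0.090). Over the reference spots it was then higher in NP (0.32, adjusted p = 0.010), beside 20.7% of analytes called higher.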
